A study of Mus musculus with 18 samples.

Results

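The difference between 2 ways of inhibiting retinoic acid signaling was measured in mIMCD-3 cells, a mouse line derived from the inner medullary collecting duct of the kidney. It is the effect of AGN193109, an antagonist of the retinoic acid receptors, minus the effect of DEAB, an inhibitor of retinaldehyde dehydrogenases. Each effect is the log2 level with the inhibitor minus the log2 level with vehicle, so a contrast below 0 means that a gene was lowered more, or raised less, by AGN193109 than by DEAB. The contrast was taken by rule from the 12 arrays of these 4 groups out of 18 arrays in all, and over the 23410 of 35556 transcript clusters (the probe sets of the array, usually 1 per gene) that carry a gene symbol.

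The first experiment held 3 cultures with 1 µM AGN193109, 3 with 1 µM AGN193109 and 0.2 µM all-trans retinoic acid (tRA), and 3 with vehicle. The second held 3 cultures with 25 µM DEAB, 3 with 25 µM DEAB and 0.01 µM tRA, and 3 with vehicle. The vehicle was 0.1% each of ethanol and DMSO, exposure lasted 24 h, and each replicate number stands for 1 independent experiment on the same cell line. The inhibitors were each given at 1 dose, in separate experiments with their own vehicle cultures, so inhibitor, dose and experiment cannot be told apart in the contrast, and its p-values measure the spread between cultures of 1 line.

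Retinoic acid is made inside cells from retinaldehyde by retinaldehyde dehydrogenases, and it binds retinoic acid receptors (RARs), which sit on DNA as heterodimers with RXRs. Without ligand these receptors can hold corepressors on their target genes, and with ligand they recruit coactivators. AGN193109 occupies all RAR subtypes in place of the ligand, whereas DEAB lowers the supply of ligand and also inhibits other aldehyde dehydrogenases. In the developing kidney retinoic acid signaling is known for its part in the growth of the ureteric bud, from which the collecting duct arises.

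Epithelial identity was checked on the arrays of the contrast. The epithelial cadherin gene Cdh1 had group means of 12.25 to 12.91 on the log2 scale, and the collecting duct gene Pax2 had 10.93 to 11.18. Aqp2, the water channel of principal cells, had group means of 7.79 to 8.03, and the median level of all clusters was 8.02, though levels of different probe sets are not amounts that can be set against each other. Over all 18 arrays the 27 clusters of markers of other kidney and blood cells had levels of 4.76 to 10.92 (median 6.88). The 11 identity clusters had levels of 6.99 to 13.78 (median 11.78), so the lists overlapped in level. In either list 0 clusters were called for the contrast in either direction. Array medians lay between 7.23 and 7.33 for AGN193109 and its controls and between 7.48 and 7.51 for DEAB and its controls, so levels were compared only within an experiment.

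To show where retinoic acid receptors could in principle be bound, promoters of genes on which the results turn are printed from RefSeq (GRCm38.p6), from 250 bases before to 50 after the annotated start, on the strand of the gene. Of the 4 marker genes of the contrast (Cpm, Plekhs1, Capn5 and Them6) and Tns1, 3 of 5 had a promoter in the table, and Ppbp is added for its direct repeat. Capitals mark, on either strand, the hexamer AGGTCA that a single receptor of a RAR and RXR pair binds, its related form written as AGTTCA in many response elements, the purine-led form known as GGGTCA from other elements, and the remaining combination of these letters, GGTTCA. Cpm lies at chr10:117629250-117629549 (+), Plekhs1 at chr19:56461387-56461686 (+), Tns1 at chr1:74124499-74124798 (-) and Ppbp at chr5:90768268-90768567 (+).
Cpm: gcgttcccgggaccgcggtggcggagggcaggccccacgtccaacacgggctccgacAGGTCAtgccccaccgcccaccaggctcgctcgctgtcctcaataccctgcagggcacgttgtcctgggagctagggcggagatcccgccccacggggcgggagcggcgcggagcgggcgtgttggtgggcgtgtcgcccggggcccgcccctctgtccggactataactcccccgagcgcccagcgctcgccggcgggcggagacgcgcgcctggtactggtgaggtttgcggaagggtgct
Plekhs1: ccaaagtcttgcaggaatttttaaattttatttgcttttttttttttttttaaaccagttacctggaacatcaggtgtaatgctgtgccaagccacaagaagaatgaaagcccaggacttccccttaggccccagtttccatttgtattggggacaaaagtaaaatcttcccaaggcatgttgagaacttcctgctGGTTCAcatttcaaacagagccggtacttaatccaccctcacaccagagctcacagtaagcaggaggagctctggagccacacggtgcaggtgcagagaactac
Tns1: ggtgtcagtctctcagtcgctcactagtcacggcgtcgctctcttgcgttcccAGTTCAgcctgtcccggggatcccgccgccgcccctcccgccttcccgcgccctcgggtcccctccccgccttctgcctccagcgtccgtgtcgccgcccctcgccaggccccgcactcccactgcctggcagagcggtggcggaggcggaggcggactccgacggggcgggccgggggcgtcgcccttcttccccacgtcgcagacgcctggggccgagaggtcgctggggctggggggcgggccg
Ppbp: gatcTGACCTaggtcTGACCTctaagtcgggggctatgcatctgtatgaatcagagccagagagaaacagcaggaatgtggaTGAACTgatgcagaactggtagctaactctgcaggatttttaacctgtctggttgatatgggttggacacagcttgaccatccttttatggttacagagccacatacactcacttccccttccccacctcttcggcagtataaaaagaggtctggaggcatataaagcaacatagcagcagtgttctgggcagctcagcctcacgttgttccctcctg

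The promoters of Cpm, Plekhs1 and Tns1 each held 1 such hexamer and no direct repeat spaced by 1, 2 or 5 bases, and the first bases of the hexamers stood at -193, -54 and -197 from the start used for each promoter. For Plekhs1 that start lies 4362 bases downstream of the outermost RefSeq start of the gene, and for Cpm, Tns1 and Ppbp it is the outermost start. The promoter of Ppbp held 3 on the opposite strand, at -246, -235 and -168, the first pair forming a direct repeat spaced by 5 bases. Of all 32851 RefSeq promoters of 300 bases, 43.7% held at least 1 hexamer, 0.222% a direct repeat spaced by 1, 0.268% one spaced by 2 and 0.0974% one spaced by 5. Of 62 genes lower with both inhibitors, 44 had a promoter in the table, some more than 1, which gave 59 promoters. Of these 59, 27 (45.8%) held a hexamer, 1 (1.69%) a direct repeat spaced by 1, 0 one spaced by 2 and 1 (1.69%) one spaced by 5. The repeats were in the promoters of Cxcl10 and Ppbp. Only these 300 bases were read, so repeats further from the start were not looked for. The paper, using a published list for the whole genome, reports repeats spaced by 5 bases for most of the target genes it checked by PCR. A match is a description of letters and not a binding site.

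Carboxypeptidase M (Cpm) is a membrane enzyme that removes C-terminal arginine or lysine from peptides. It was the 1 gene called for the contrast in the main fit, over all 18 arrays with the replicate number as a block. Other fits given further on did not always make that call. Cpm fell by 2.36 on the log2 scale with AGN193109 and fell by 1.20 with DEAB, which left 0.194 and 0.434 of the vehicle level. The contrast was -1.16 (SE 0.11, 95% interval -1.39 to -0.93, limma adjusted p = 0.00304), so that the share of Cpm left with AGN193109 was 0.448 of the share left with DEAB. Of the 23410 clusters tested, 1 was called lower for the contrast at an adjusted p under 0.05 (0.00427%) and 0 were called higher (0%). At an unadjusted p under 0.05 there were 486 clusters lower (2.08%) and 819 higher (3.5%), a balance that turned under each of the 3 other scalings of the arrays, to 920 lower and 669 higher, 777 and 509, and 855 and 573.

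On the log2 scale the 3 cultures with AGN193109 had Cpm levels of 9.01, 8.01 and 9.34, those with AGN193109 and tRA had 10.61, 9.81 and 10.76, and those with vehicle had 11.22, 10.56 and 11.68. The levels were 10.17, 10.64 and 10.44 with DEAB, 11.81, 12.14 and 12.13 with DEAB and tRA, and 11.39, 11.76 and 11.72 with its vehicle. Replicate 2 was the lowest in every group of the AGN193109 experiment, and the inhibitor and vehicle groups did not overlap in either experiment. With tRA added, all 3 cultures lay above the highest culture of the inhibitor alone in both experiments, and above the highest vehicle culture only in the DEAB experiment. Within replicates Cpm differed from vehicle by -2.21, -2.54 and -2.34 with AGN193109, against -1.22, -1.12 and -1.27 with DEAB. The smallest difference with AGN193109 was thus larger than the largest with DEAB. Such separation was seen in 2683 of all clusters (11.5%), 892 with AGN193109 below DEAB and 1791 with it above.

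The call of Cpm rested on the replicate number as a block and on the arrays with tRA. Those arrays are outside the contrast and add only to the estimate of spread. The call held when each of the 18 arrays was left out in turn (adjusted p 0.00154 to 0.0297 in limma). It was lost without the block (adjusted p = 1.00) and with the block as a random effect (0.904). With the block kept and the 12 arrays of the contrast alone it was also lost (0.115). The contrast was -1.16 in each of the 3. An exact two-sided permutation test of the 3 differences against 3 gave p = 0.1 for each of the 4 marker genes, the smallest that the 20 assignments allow. Every cluster whose differences do not overlap gives that p (11.5% of all clusters). The 4 genes are markers of this same contrast, so the test adds no support. Mdm2, which lies next to Cpm on chromosome 10 and encodes the ubiquitin ligase of p53, had a contrast of 0.11 (SE 0.08). Of 15 metallocarboxypeptidase clusters, Cpm alone was called for the contrast and the median was 0.01. Cpn1, the catalytic subunit of carboxypeptidase N, fell by 0.86 with AGN193109 and fell by 0.68 with DEAB, with a contrast of -0.18 (SE 0.16).

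**Figure D1:**
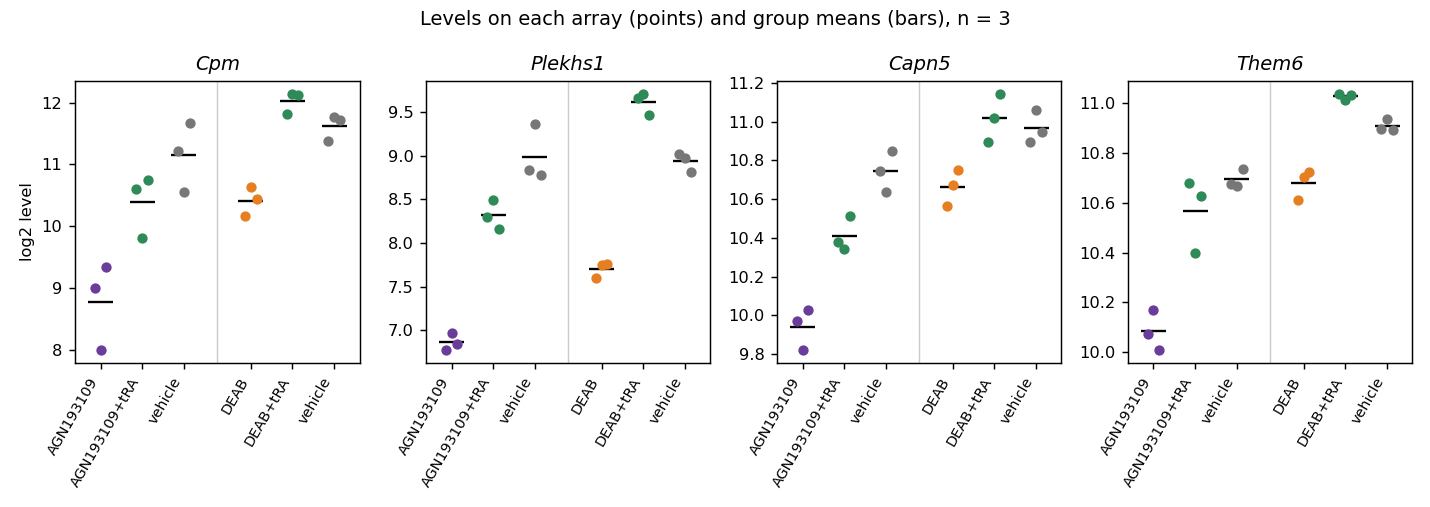
Log2 levels of Cpm, Plekhs1, Capn5 and Them6 on each of the 18 arrays, as points by group, with the mean of 3 as a bar and each gene on its own axis. In each panel the AGN193109 cultures lie further below their vehicle cultures than the DEAB cultures lie below theirs, with a contrast of -1.16 for Cpm, -0.89 for Plekhs1, -0.50 for Capn5 and -0.38 for Them6.

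Plekhs1, which encodes a protein with a pleckstrin homology domain and lies on chromosome 19, had the third smallest p. Its log2 levels were 6.78, 6.97 and 6.85 with AGN193109 and 8.83, 9.36 and 8.78 with vehicle. In the other experiment they were 7.60, 7.74 and 7.76 with DEAB, against 9.01, 8.97 and 8.82 with vehicle. The groups were far apart in both experiments, and Plekhs1 fell by 2.12 with AGN193109 and by 1.23 with DEAB on the log2 scale. The contrast of -0.89 (SE 0.13, 95% interval -1.17 to -0.62) did not pass (limma adjusted p = 0.0969). It passed under 2 of the 31 alternatives. These were quantile normalization of all arrays together (-1.03, limma adjusted p = 0.0280) and equal median and interquartile range (-0.98, limma adjusted p = 0.0288). With each array left out in turn it did not pass (limma adjusted p 0.0993 to 0.523).

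Capn5, on chromosome 7, encodes calpain 5, a calcium-dependent protease. Its levels were 9.97, 9.82 and 10.03 with AGN193109, against 10.75, 10.64 and 10.85 with vehicle, and 10.57, 10.67 and 10.75 with DEAB, against 10.90, 11.06 and 10.95 with vehicle. It fell by 0.80 with AGN193109 and by 0.31 with DEAB, no group overlapped its vehicle, and the differences with AGN193109 varied little, at -0.78, -0.82 and -0.82. The contrast of -0.50 (SE 0.08, interval -0.66 to -0.33) did not pass (limma adjusted p = 0.124) and passed under 0 of the 31 alternatives. Of the 15 calpain clusters measured, 0 were called and the median contrast was 0.02. Capn2 and Cast, a ubiquitous calpain subunit and the calpain inhibitor, had contrasts of 0.13 and 0.11.

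Them6, a member of the thioesterase superfamily on chromosome 15, had levels of 10.07, 10.17 and 10.01 with AGN193109 and 10.68, 10.67 and 10.74 with vehicle. It had 10.61, 10.70 and 10.72 with DEAB, against 10.90, 10.94 and 10.89 with vehicle. Neither inhibitor group overlapped its vehicle, but Them6 was called lower only with AGN193109 (-0.61, limma adjusted p = 0.000667), its value with DEAB being -0.23 (limma adjusted p = 0.537). The contrast of -0.38 (SE 0.10, interval -0.60 to -0.16) did not pass (limma adjusted p = 0.618). The 14 acyl-CoA thioesterase clusters had a median contrast of 0.03, with 0 called.

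Tensin 1 (Tns1), which links integrins to the actin cytoskeleton at focal adhesions, had the second smallest p in its brightest cluster. The levels of that cluster were 10.21, 8.98 and 9.79 with AGN193109, against 11.76, 10.61 and 11.57 with vehicle, and 10.55, 11.24 and 11.33 with DEAB, against 11.54, 12.33 and 12.38 with vehicle. Replicate 2 was again the lowest in the AGN193109 experiment. Within replicates the differences were -1.56, -1.62 and -1.77 with AGN193109 and -0.99, -1.10 and -1.05 with DEAB, without overlap. The contrast was -0.61 (SE 0.08, limma adjusted p = 0.0528), and 6 of the 31 alternatives called it. The other 5 clusters of Tns1 had contrasts of -0.56, -0.49, -0.39, -0.36 and 0.03, the last in a cluster with values of 0.09 with AGN193109 and 0.06 with DEAB.

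Further genes were named for a low p in either direction, and none of them passed. Interleukin 34 (Il34), a ligand of the CSF1 receptor, had a contrast of -0.52 (SE 0.08, limma adjusted p = 0.124). It fell by 0.72 with AGN193109, and its value with DEAB was -0.20. Mab21l4 had a contrast of -0.70, with a fall of 1.21 with AGN193109 and of 0.50 with DEAB. Its 3 differences with AGN193109 (-1.31, -1.31 and -1.01) did not overlap those with DEAB (-0.69, -0.49 and -0.33). The neighboring uroplakin genes Upk3b and Upk3bl, whose products belong to the urothelial plaque family, had contrasts of -0.47 and -0.53. Smad3, a transducer of TGF-beta signals, had -0.34, with a fall of 0.80 with AGN193109 and of 0.46 with DEAB. Mknk2, a kinase of the translation factor eIF4E, had -0.45, and Il22ra1, a subunit of the interleukin 22 receptor, had -0.38 in the cluster of the study's tables and -0.05 in another. Olfr1155, an olfactory receptor gene called with neither inhibitor, had -0.52 in a dim cluster (mean level 5.68).

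In the other direction Tcim had the largest contrast among these genes, 0.73 (SE 0.14, limma adjusted p = 0.298). Its levels were 10.42, 10.64 and 10.71 with AGN193109, against 9.25, 9.84 and 9.54 with vehicle, and 10.09, 9.92 and 9.72 with DEAB, against 10.05, 9.34 and 9.38 with vehicle. It rose by 1.05 with AGN193109, and its value with DEAB was 0.32, with overlapping groups. Tmem251 (0.49), Tnfrsf23 (0.45), Abcd2 (0.42), Paip1 (0.40), Ube2cbp (0.40), Cyp2s1 (0.38), Myadm (0.38) and Snapc1 (0.37) followed, and all of them except Abcd2 were called higher with AGN193109 and not called with DEAB. With each experiment fitted apart, of these calls that of Tnfrsf23 was made (limma adjusted p = 0.0200), and the other 6 had adjusted p of 0.139 (Myadm) to 0.296 (Paip1). Abcd2 is a peroxisomal transporter of very long fatty acids, Paip1 binds the poly(A)-binding protein, Cyp2s1 is a cytochrome P450 and Tnfrsf23 a decoy receptor in mice. The cluster of Abcd2 was dim (mean level 6.03). A call with 1 inhibitor and none with the other does not show a difference, and in this group the test of the difference gave adjusted p of 0.192 or more in limma.

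**Figure D2:**
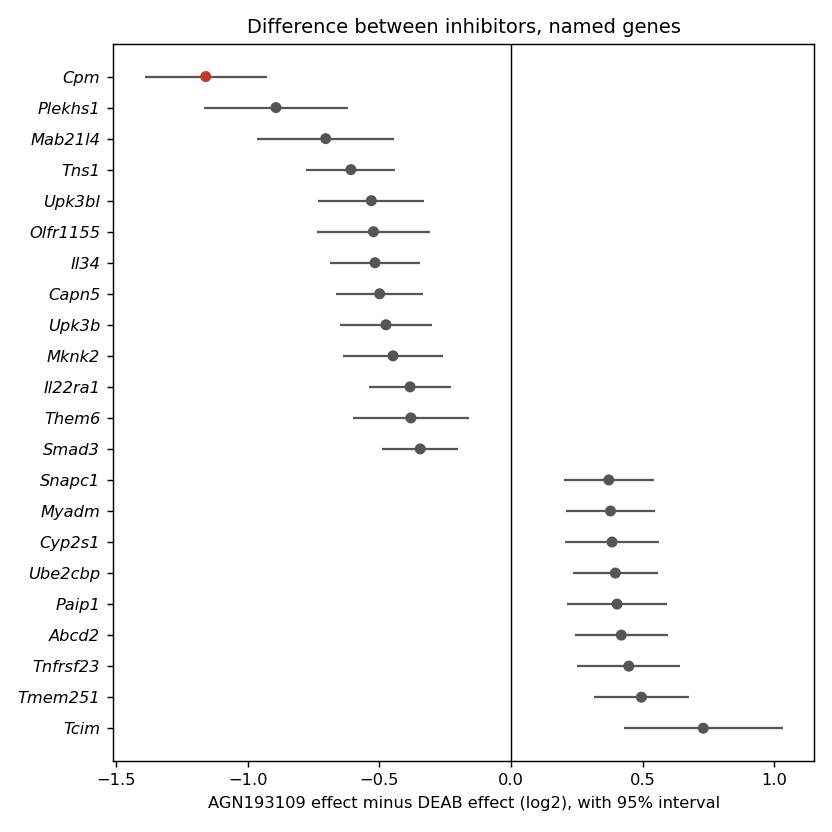
Contrast (AGN193109 effect minus DEAB effect, log2) of 22 genes as points, with the 95% interval as a line, Tns1 being shown by its brightest cluster. Only Cpm, in red, passed the adjusted threshold; the intervals of all 22 leave out 0, the genes having been chosen mostly for small p.

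Over all clusters the contrast was narrow. Its median was 0.01, its 5th to 95th percentile ran from -0.20 to 0.22, and the 95% interval of a single cluster reached 0.24 to either side at the median. Under the 3 other scalings of the arrays the median over all clusters was -0.016, -0.015 and -0.014, so the sign of a list median this close to 0 can depend on the scaling. Only 4 clusters had a contrast beyond 1 in size, namely Cpm, a cluster of Tsen15 (1.11, limma adjusted p = 0.298), which was singled out after its value was seen, and 2 clusters shared by several genes.

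The contrast was read next against the size of the response. AGN193109 called 232 clusters lower (0.991%) and 147 higher (0.628%), and DEAB called 68 lower (0.29%) and 4 higher (0.0171%). The spread was estimated jointly, although the median residual SD was 0.106 with AGN193109 and its controls and 0.0696 with DEAB and its controls, and with each experiment fitted apart, a choice made after seeing the data, the counts were 87 and 20 with AGN193109 and 66 and 5 with DEAB. Calls lost in that fit included those of Capn5, Mab21l4 and Cpn1 with DEAB (limma adjusted p = 0.117, 0.0577 and 0.142) and, with AGN193109, that of Egr1 (0.0695), besides those of the 6 genes above. Of the 66 clusters lower with both, 59 had the larger fall with AGN193109. Over all 23410 clusters, 14143 had the larger absolute effect with AGN193109. The median fall was 0.80 with AGN193109 and 0.53 with DEAB, at a median ratio of 1.35 (quartiles 1.18 to 1.63). Of these 66, 34 had a contrast with an unadjusted p under 0.05, beside 5.57% of all clusters, and 1, Cpm, was called. With the experiments fitted apart, 44 of 45 had the larger fall with AGN193109, at a median ratio of 1.52. These clusters were chosen on both effects, so the counts describe them and were not tested. No cluster was called in opposite directions.

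**Figure D3:**
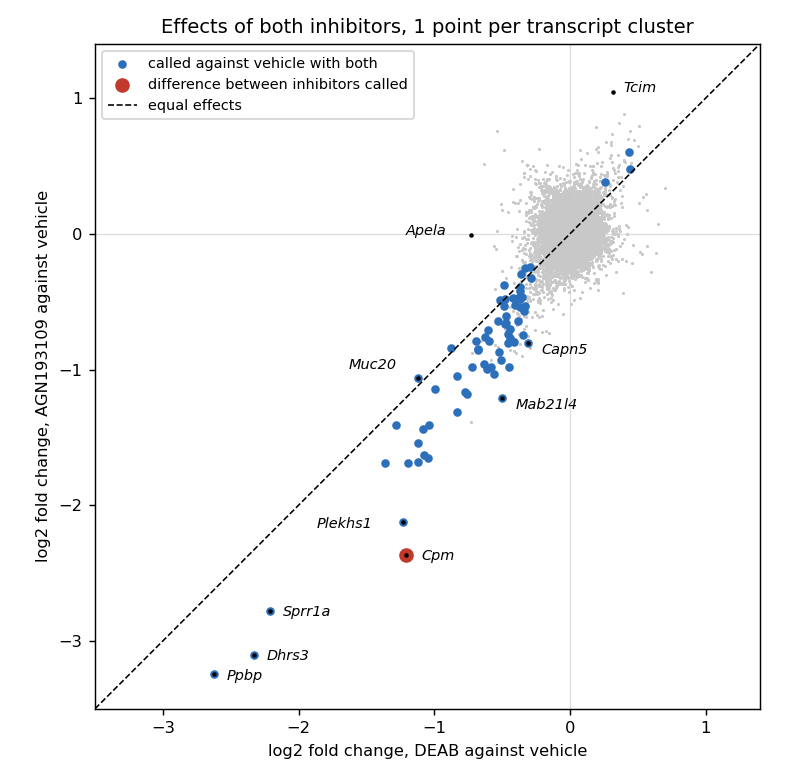
Log2 fold change against vehicle of each of 23410 clusters with AGN193109 (vertical axis) and with DEAB (horizontal axis), with clusters called for both in blue, Cpm as the called contrast in red and the dashed line at equal effects. Most of the 66 clusters lower with both lie below the line, at a median ratio of 1.35, and Muc20 lies on it.

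The 20 genes that the study singled out for the largest falls mostly had the more negative value with AGN193109. The study had picked them from the same arrays and ranked them by their change with AGN193109, the first term of the contrast. That choice favors contrasts below 0, so the counts that follow describe these genes and are no evidence of a difference. Of them, 19 had a contrast below 0, the median was -0.45, and the within-replicate differences of 14 did not overlap between inhibitors, beside 11.5% of all clusters. Ppbp, a CXC chemokine, had values of -3.25 with AGN193109 and -2.62 with DEAB on the log2 scale, both called, and a contrast of -0.63 (SE 0.20, limma adjusted p = 0.715). Its levels were 7.44, 7.03 and 7.78 with AGN193109 and 10.41, 10.68 and 10.91 with vehicle, then 8.89, 8.45 and 8.46 with DEAB and 11.58, 11.06 and 11.01 with vehicle.

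Dhrs3, a retinaldehyde reductase and a known retinoic acid target, had a contrast of -0.78 with an SE of 0.55 (interval -1.96 to 0.41). Its levels were 6.94, 7.07 and 7.24 with AGN193109, against 10.68, 8.97 and 10.91 with vehicle, and 7.66, 7.89 and 7.83 with DEAB, against 8.86, 10.66 and 10.83 with vehicle. The inhibitor levels were close together, while 1 vehicle culture of each experiment lay far below the other two. Muc20, a mucin gene, was the exception among the 20. It fell by 1.06 with AGN193109 and by 1.12 with DEAB, with a contrast of 0.06 (SE 0.15, interval -0.27 to 0.38) whose sign turned after quantile normalization (-0.01). Npr3, the clearance receptor for natriuretic peptides, and Ebf1, a transcription factor, had contrasts of -0.15 and -0.13. Klhdc7a (-0.55), Sprr1a, a precursor of the cornified envelope (-0.57), Lcn2, the siderophore-binding lipocalin (-0.48), and the sulfatase gene Galns (-0.42) lay further from 0, and none of them passed.

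**Figure D4:**
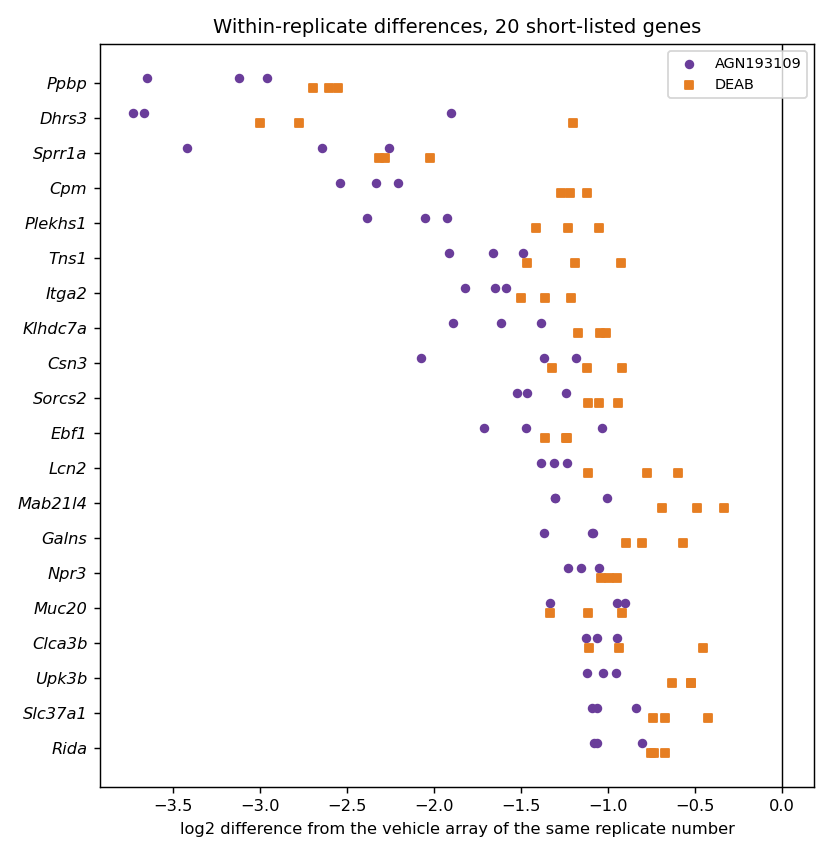
Log2 difference from the vehicle array of the same replicate number for the 20 genes of largest fall, 3 points per inhibitor, AGN193109 above DEAB in each row. The AGN193109 points lie to the left of the DEAB points without overlap for 14 of the 20 genes, among them Cpm and Plekhs1, and among the others they overlap for Muc20, Ebf1 and Dhrs3.

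Called with DEAB and not with AGN193109 were 3 clusters, those of Ifi205, Gper1 and Apela. With each experiment fitted apart there were 26, of which 2 had a contrast with an unadjusted p under 0.05, beside 5.57% of all clusters. Apela, the gene of a peptide ligand of the apelin receptor, had -0.01 with AGN193109 and fell by 0.73 with DEAB, a contrast of 0.72 (SE 0.16, interval 0.36 to 1.08, limma adjusted p = 0.595). Ifi205, an interferon-inducible gene, had 0.02 with AGN193109 and fell by 0.54 with DEAB, a contrast of 0.56. Its levels ranged from 6.64 to 7.61 with AGN193109, from 6.38 to 7.72 with the matching vehicle, from 5.87 to 6.53 with DEAB and from 6.22 to 7.22 with the other vehicle. Gper1, a membrane estrogen receptor, was 0.27 with AGN193109 and rose by 0.54 with DEAB, a contrast of -0.27 with an interval of -0.56 to 0.03. Of the clusters with 1 gene, 23 were called with 1 inhibitor and had the opposite sign with the other, 22 of them called with AGN193109 and 1 with DEAB. Most calls had the same sign with both inhibitors. Counting every cluster, these were 229 of the 232 lower and 125 of the 147 higher with AGN193109. With DEAB they were 67 of the 68 lower and 4 of the 4 higher. Over all 23410 clusters, called or not, 12419 had the same sign. In Tmem251 the differences from vehicle were 0.38, 0.25 and 0.28 with AGN193109, against -0.08, -0.24 and -0.26 with DEAB. Every replicate lay above vehicle with AGN193109 and below it with DEAB in 450 of all clusters (1.92%), the reverse held in 99 (0.423%), and both together made 549 (2.35%).

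No gene of the retinoid pathway itself was called for the contrast. Of 36 clusters for transport, metabolism and reception of retinoids, 0 were called, 1 was lower and 3 higher at an unadjusted p under 0.05, beside 2.08% and 3.5% of all clusters. The median contrast was -0.02 beside 0.01 over all clusters, and -0.05 beside -0.014 to -0.016 under the 3 other scalings. Among the receptors, Rarg had a contrast of -0.33 (interval -0.57 to -0.09, limma adjusted p = 0.761), Rara had -0.06 and Rarb had -0.01. The Rarg levels were 10.23, 10.04 and 10.06 with AGN193109, against 10.48, 10.35 and 10.45 with vehicle, and 10.22, 10.38 and 10.40 with DEAB, against 10.24, 10.38 and 10.31 with vehicle. Only the AGN193109 cultures of Rarg lay wholly apart from their vehicle. The value of -0.31 with AGN193109 was not called, with a limma adjusted p of 0.0801, or 0.442 with each experiment fitted apart. Among the enzymes, Aldh1a3, a retinaldehyde dehydrogenase, had 0.24, Aldh1a1 0.10 and Aldh1a2 0.02, and the retinol dehydrogenase gene Dhrs9 had 0.41 with an interval of 0.06 to 0.75. Stra6, the receptor for retinol-binding protein, had -0.48 with AGN193109 and -0.48 with DEAB. The degrading enzyme genes Cyp26a1 and Cyp26b1 had contrasts of -0.03 and -0.10. The 20 aldehyde dehydrogenase clusters and the 16 clusters of corepressors and coactivators had 0 called and median contrasts of 0.01 each, which turned negative under all 3 other scalings.

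The list of known retinoic acid targets gave 27 clusters with a median contrast of -0.02 and 0 called. Tgm2, the tissue transglutaminase, fell by 0.98 with AGN193109 and by 0.58 with DEAB, a contrast of -0.40 (SE 0.09, limma adjusted p = 0.542). Bmp7, a bone morphogenetic protein of the kidney, fell by 0.73 with AGN193109 and was -0.38 with DEAB, a contrast of -0.36. Egr1, an immediate early transcription factor, went the other way, rising by 0.41 with AGN193109 and standing at 0.10 with DEAB, a contrast of 0.31. In developmental and transport genes, Wnt4, a ligand of kidney development, had -0.36, Car2, a carbonic anhydrase of intercalated cells, had -0.55 (SE 0.21) and the integrin gene Itga3 had -0.28. Another cluster of Wnt4 had -0.22 (SE 0.18). None of these passed.

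The lowest median of a functional list belonged to cholesterol and fatty acid synthesis. Its 25 clusters had a median contrast of -0.14 beside 0.01 over all clusters, 21 of them lay below 0, and 5 were lower at an unadjusted p under 0.05, beside 2.08% of all clusters, although 0 were called. The median effect was -0.06 with AGN193109 and 0.04 with DEAB, so both effects were small, and 0 of the 25 were called with either inhibitor. The 5 were Pmvk (-0.39), Mvd (-0.31), Acaca (-0.27), Srebf1 (-0.23) and Fasn (-0.23). Pmvk and Mvd are enzymes of the mevalonate pathway, Acaca is acetyl-CoA carboxylase, Srebf1 a regulator of lipid synthesis and Fasn fatty acid synthase. Another, less bright cluster of Acaca had -0.13 (SE 0.13). The Pmvk levels were 9.18, 8.79 and 9.12 with AGN193109, against 9.58, 9.09 and 9.18 with vehicle, and 9.58, 9.50 and 9.26 with DEAB, against 9.43, 9.37 and 9.16 with vehicle. These levels overlapped with vehicle in both experiments, but within replicates Pmvk differed from vehicle by -0.40, -0.30 and -0.07 with AGN193109 and by 0.15, 0.13 and 0.11 with DEAB, neither being called. The median of this list ran from -0.17 to -0.16 under the 3 other scalings.

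In the list of NRF2 targets and glutathione genes (33 clusters, median -0.04, 0 called), glutathione reductase (Gsr) fell by 0.93 with AGN193109 and by 0.50 with DEAB, a contrast of -0.42. The glutathione transferases Gstm1 and Gstm2 fell with both inhibitors, with contrasts of -0.38 and -0.25. These transferases are close paralogs, and cross-hybridization between them was not tested. The 25 clusters of the unfolded protein and integrated stress response had a median of 0.04 with 18 above 0 (12647 of 23410 over all clusters) and 4 higher at an unadjusted p under 0.05 (3.5% over all clusters), the median being 0.011 to 0.024 under the 3 other scalings. Among the 4 were Dnajb9, a chaperone of the endoplasmic reticulum (0.35), and Ppp1r15a, which directs the phosphatase of eIF2alpha (0.24). Median effects of that list were -0.0011 with AGN193109 and -0.11 with DEAB. The squamous list (41 clusters) had a median of 0.07 with 0 called, Casp14, a caspase of keratinocytes, at 0.43 and Dsg2, a desmosomal cadherin, at -0.32. TGF-beta and BMP signaling (37 clusters, median 0.04), interferon response (23, median 0.02), cell cycle (34, median 0.02) and housekeeping genes (14, median 0.02) had 0 called. The medians of the last 3 lay below 0 under at least 2 of the 3 other scalings. The remaining lists also had 0 called. Their median contrasts were 0.05 for aryl hydrocarbon receptor targets (9 clusters), 0.05 for heat shock and proteasome (16), 0.04 for p53 targets (19), -0.01 for hypoxia and glycolysis (22) and 0.05 for PPAR targets and fatty acid oxidation (21). They were 0.04 for NF-kB and epithelial cytokines (28), 0.05 for immediate early genes and ERK feedback (27), -0.01 for the EGF receptor family (17) and -0.0042 for integrins and laminins (27). In kidney lists they were 0.06 for principal cell transport (18), -0.02 for intercalated cell genes (16) and -0.03 for kidney development (28).

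The short-lists of the study, which it drew from these same arrays and which are no independent evidence, differed in where they stood. The 94 clusters suppressed by both inhibitors had a median contrast of -0.22, 87 of them below 0 and 48 lower at an unadjusted p under 0.05, beside 2.08% of all clusters. The 31 induced by both gave 30 clusters with a median of 0.15 and 28 above 0, among them Ptgs2, the inducible cyclooxygenase (0.43), and Timp3, an inhibitor of metalloproteinases (0.31). Of 253 clusters listed for AGN193109 only, 59 were lower and 60 higher at that p, beside 2.08% and 3.5% of all clusters, with 0 called and a median contrast of 0.03. Of 289 listed for DEAB only, 11 were lower and 18 higher, with 0 called and a median of 0.01, the same as over all clusters to this precision. Of 8 others short-listed for both, 3 had the same sign with both inhibitors. Of those of opposite sign, Il22ra1 (-0.38) and Cyp2s1 (0.38) are named, Il22ra1 with -0.30 and 0.08, Cyp2s1 with 0.27 and -0.11.

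**Figure D5:**
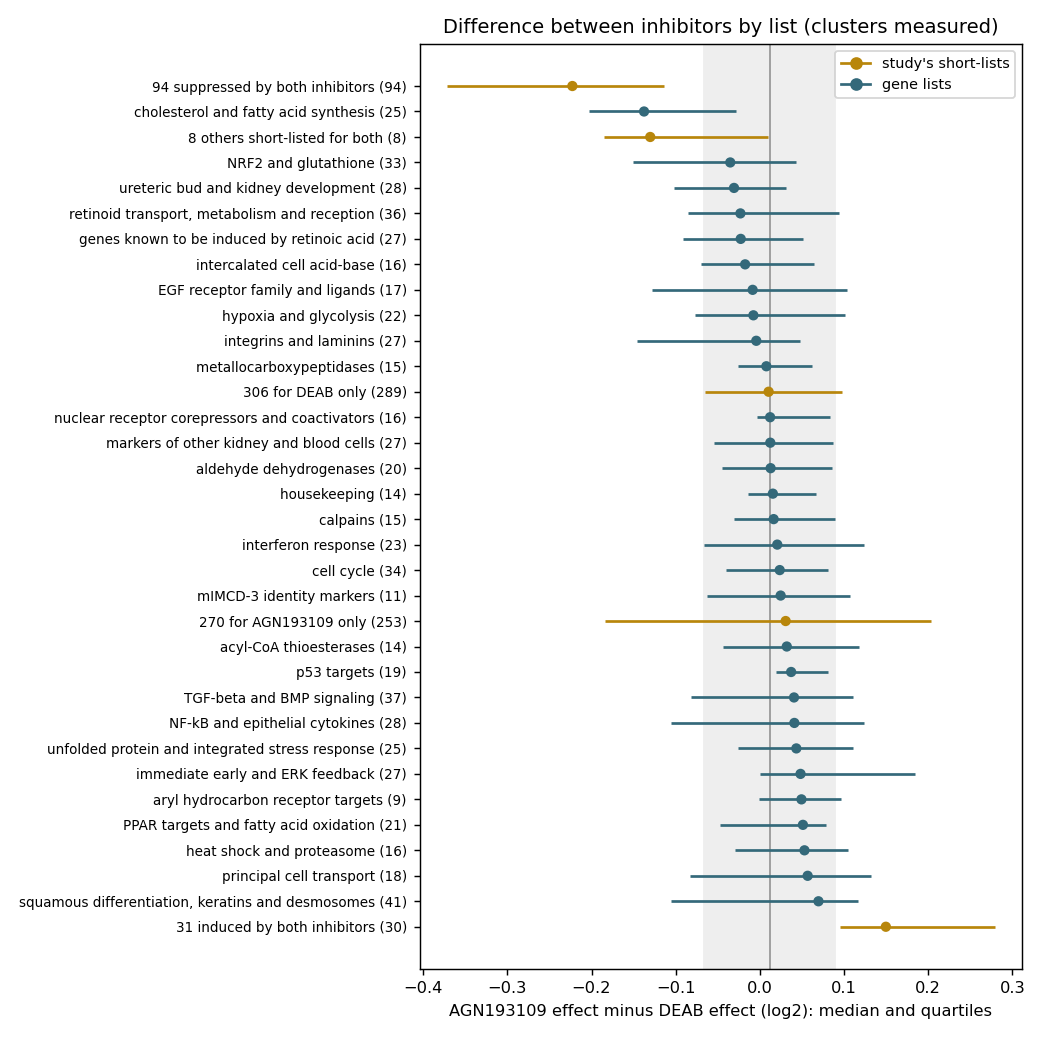
Median (point) and quartiles (line) of the contrast in each list, lists ordered by median from the lowest at the top, with the number of clusters measured in brackets and the median and quartiles of all clusters tested as a grey line and band. The lists of the study for both inhibitors stand at the ends, at -0.22 for the 94 suppressed and 0.15 for the 31 induced, and cholesterol and fatty acid synthesis has -0.14.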

How the data were processed

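The Affymetrix Mouse Gene 1.0 ST array was used for 18 RNA samples. The authors normalized them with the Robust Multichip Average in Affymetrix Expression Console, per the labels, and deposited log2 values, which were used unchanged. Its version is not given in the sources consulted. Arrays were grouped by title, and some other label fields spell AGN193109 as AGN193110 or AGN193099. Of 35556 clusters, 21789 had 1 symbol, 1621 several and 12146 none, the last being left out. Of those with 1 symbol, 21698 matched the RefSeq gene table (GRCm38.p6) by gene ID.

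The contrast was fitted in limma 3.58.1 (R 4.3.3) over all 18 arrays, with group within experiment and replicate number nested in experiment as block (8 residual degrees of freedom), moderated variances and Benjamini-Hochberg adjustment over 23410 clusters. Calls were made at an adjusted p under 0.05. The design text gives each number as 1 independent experiment, and all 9 same-numbered pairs of arrays had residual correlations of 0.198 to 0.645 (AGN193109) and of 0.179 to 0.614 (DEAB). The 18 pairs of different number had -0.575 to 0.205 (AGN193109) and -0.511 to 0.312 (DEAB), so the ranges overlapped. As a random effect the block had a correlation of 0.263. Precision is limited by having 3 arrays per group. The script was tested on simulated data. Genes were named by rule: 4 markers, called clusters, the smallest p in each direction up to 20, up to 3 per list, the 20 largest falls and 8 other clusters of the study, and up to 10 of opposite sign, a gene with several clusters being read from that of the study's tables, else the brightest. The members and lists were chosen with earlier results of these data known. Alternatives were no block, a random block, 12 arrays, weights by experiment or array, 3 other scalings, other sets of clusters, the trend and robust options, and each array left out. Figures were drawn with matplotlib 3.10.9.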

Additional observations from a re-analysis of the deposited data

Results flagged for a closer look

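Cpm stood out because the test of the difference itself passed in the main fit, with a contrast of -1.16. Its differences from vehicle did not overlap between inhibitors, a separation seen in 11.5% of all clusters. Replicates of the AGN193109 and DEAB experiments were not paired with each other. Of the 127 clusters named by rule, 19 moved one way in every replicate with AGN193109 and the opposite way in every replicate with DEAB. Over all 23410 clusters 549 did so (2.35%). Many of the 127 were named for a small p of this same contrast, and some for opposite signs. Both choices favor opposite signs, so the 19 are no evidence of an excess. Above vehicle with AGN193109 and below it with DEAB were 16, namely 3830403N18Rik (contrast 0.58), Lyz1 (0.50), Tmem251 (0.49), Ccl20 (0.42), Abcd2 (0.42), Paip1 (0.40), Ube2cbp (0.40), Cyp2s1 (0.38), Myadm (0.38), Snapc1 (0.37), Hspa1a (0.32), Rbp7 (0.28), Acot12 (0.26), Acot2 (0.25), Gdnf (0.22) and Creb5 (0.22). The reverse held for 3, namely Olfr1155 (-0.52), Pmvk (-0.39) and Il22ra1 (-0.38). The opposition of signs was not tested, and the contrast of none of the 19 passed (limma adjusted p 0.192 to 0.906). 3830403N18Rik was dim, with levels of 4.05, 3.74 and 4.15 with AGN193109 and 3.58, 3.60 and 3.39 with vehicle. Abcd2, Olfr1155 and Lyz1 were also among the dimmest 30% of all clusters, Abcd2 with a mean level of 6.03 and Olfr1155 of 5.68.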

How the results depend on the processing

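The number of clusters called lower was 1 in the main fit, over all 18 arrays with the replicate number as a block. It was 0 with no replicate block and with the replicate block as a random effect. It was also 0 with the block kept and only the 12 arrays of the contrast. Without the block the contrast of Cpm was -1.16 with an adjusted p of 1.00 in limma, with a random block -1.16 (0.904) and with 12 arrays -1.16 (0.115). The count was 2 with weights by experiment, with array medians subtracted, without dim clusters, with clusters of 1 symbol and with the trend option, 3 after quantile normalization and 4 with equal median and interquartile range. The clusters added were among Tns1, Plekhs1 and Il34. Array weights, whose estimation stopped before convergence, gave 1. Leaving out each array in turn gave a count of 1 to 1, and 0 clusters were called higher under any setting. At an unadjusted p under 0.05, 819 higher against 486 lower (62.8% higher) became 669 against 920 (42.1%) after quantile normalization, 509 against 777 (39.6%) with array medians subtracted and 573 against 855 (40.1%) with equal median and interquartile range. The calls against vehicle became 87 lower and 20 higher with AGN193109 when each experiment was fitted apart. Signs turned in 3 genes near 0. With each array left out in turn, the contrast ran from -0.00095 to 0.23 in Tiparp, from -0.31 to 0.022 in Ebf1 and from -0.030 to 0.19 in Muc20, which had -0.012 after quantile normalization and -0.017 with equal median and interquartile range. The cause of these shifts was not tested.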
